A study of Mus musculus with 6 samples.

Results

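Chromatin accessibility was examined at the ligands, receptors and Smads of the BMP and TGF-beta pathways, in nuclei of newborn mouse hearts. The set was defined by gene symbol, as the protein-coding genes of GENCODE M21 named Bmp, Gdf or Tgfb with a number, Bmpr, Tgfbr, Acvr or Smad, and holds 44 of 21911 protein-coding genes. It comprises 23 ligands (10 BMPs, 10 GDFs and 3 TGF-betas), 12 receptors (7 of type I, 4 of type II and the co-receptor Tgfbr3), 8 Smads, and Bmp1, which carries the name but is a protease that trims procollagens. For each gene the peaks in the gene body and 2 kb to either side were scored in every library.

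Ligands of this superfamily are secreted dimers that bring together type I and type II receptor kinases at the cell surface. The activated type I receptor phosphorylates receptor-regulated Smads, with Smad1, Smad5 and Smad9 serving mainly the BMP branch and Smad2 and Smad3 the TGF-beta and activin branch, and these enter the nucleus with Smad4, while Smad6 and Smad7 inhibit the pathway. In the heart, BMP and TGF-beta signals are known for their parts in specifying cardiac progenitors, forming valves and the outflow tract, growing the ventricular wall and depositing matrix.

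Omni-ATAC-Seq, in which a transposase inserts adapters into accessible DNA, was carried out on 50000 nuclei per library from hearts at postnatal day 1. All nuclei had passed through a 2.2 M sucrose cushion, which per the study's methods leaves mainly cardiomyocyte (CM) nuclei, and each of 3 groups has 2 biological replicates. Input nuclei came from wildtype hearts without further selection, and PCM1 nuclei came from hearts labelled WT after magnet-assisted nuclear immunoprecipitation (MAN-IP) with an antibody to PCM1, a centrosomal protein found at the envelope of CM nuclei. Myc nuclei came from Nkx2-5 Cre/+; R26RSun1-Myc-Egfp/+ hearts after MAN-IP with a Myc antibody. The Cre driver removes a stop cassette in descendants of Nkx2-5 progenitors, which include smooth muscle and endothelial cells as well as CMs, so the Myc group differs from the others in genotype, antibody and cells recovered, and these cannot be told apart. Nor can fewer nuclei of a cell type be told apart from lower accessibility per nucleus.

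The authors called peaks in each library separately, and these lists hold between 75336 and 131500 peaks. Read counts were not used here, and depth inferred from the lists was 4.38 times that of the shallowest library in Input 1, 1.60 and 1.59 times in Myc, 1.13 times in Input 2 and 1.08 times in PCM1 1, with PCM1 2 the shallowest. To compare like with like, the strongest 75336 peaks of each library were ranked by q-value, from near 0 for the weakest to 100 for the strongest. The value of a gene is the rank percentile of the strongest peak in its window, with 0 where none of these peaks was present. A 0 excludes neither a weaker peak in the full list nor accessibility not detectable at that depth. Unless all peaks or full lists are named, the presence or absence of a peak below refers to these strongest 75336.

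The 5 distal sites of the pathway (over 1 kb from every start site of a protein-coding transcript) with the highest rank in their weakest library are shown first. They are the pathway's most accessible regions outside promoters that were called in every library. Each is the 200 bp around the summit, on the plus strand of mm10, and capitals mark matches to the motifs searched, which are GGGCGG for SP/KLF in the Acvr2b site and AGATAA for GATA, read on the other strand, in the Acvr1 site. The Acvr2b, Smad6, Bmpr1b and Acvr1 sites are intronic, and the Acvrl1 site lies just beyond the 3′ end of the gene.
Acvr2b chr9:119425301-119425500: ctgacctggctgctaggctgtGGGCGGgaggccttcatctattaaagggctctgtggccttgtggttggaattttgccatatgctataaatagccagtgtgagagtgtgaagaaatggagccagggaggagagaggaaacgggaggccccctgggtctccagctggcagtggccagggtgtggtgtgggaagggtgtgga
Smad6 chr9:63968628-63968827: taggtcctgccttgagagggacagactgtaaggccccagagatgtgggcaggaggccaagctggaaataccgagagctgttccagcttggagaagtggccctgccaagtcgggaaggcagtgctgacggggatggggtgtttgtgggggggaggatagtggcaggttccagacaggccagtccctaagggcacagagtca
Acvrl1 chr15:101145525-101145724: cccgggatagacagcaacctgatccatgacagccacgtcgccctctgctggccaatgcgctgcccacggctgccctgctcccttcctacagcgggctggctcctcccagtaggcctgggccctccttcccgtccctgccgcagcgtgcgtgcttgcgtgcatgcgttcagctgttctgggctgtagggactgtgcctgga
Bmpr1b chr3:142125665-142125864: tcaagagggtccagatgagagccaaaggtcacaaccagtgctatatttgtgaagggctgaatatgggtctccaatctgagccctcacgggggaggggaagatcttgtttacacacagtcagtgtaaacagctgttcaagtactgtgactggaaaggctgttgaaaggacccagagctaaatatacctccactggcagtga
Acvr1 chr2:58532383-58532582: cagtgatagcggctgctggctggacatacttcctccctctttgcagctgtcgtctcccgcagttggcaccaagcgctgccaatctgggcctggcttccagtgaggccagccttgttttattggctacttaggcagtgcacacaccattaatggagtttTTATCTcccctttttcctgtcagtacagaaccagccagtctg

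A contrast between promoters runs through the set, and 2 of them show its ends. Below are the 200 bp before the annotated start of Tgfbr1, whose promoter held the highest-ranking peak of all 44 genes, and of Bmp10, whose start had no peak in any library, both on the sense (plus) strand with CpG dinucleotides in capitals. The Tgfbr1 stretch holds 26 CpGs and the Bmp10 stretch 3.
Tgfbr1 chr4:47353022-47353221: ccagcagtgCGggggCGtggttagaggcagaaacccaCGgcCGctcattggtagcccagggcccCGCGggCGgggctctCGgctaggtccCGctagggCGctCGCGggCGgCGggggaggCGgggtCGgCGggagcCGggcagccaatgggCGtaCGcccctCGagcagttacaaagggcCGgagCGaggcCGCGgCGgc
Bmp10 chr6:87428794-87428993: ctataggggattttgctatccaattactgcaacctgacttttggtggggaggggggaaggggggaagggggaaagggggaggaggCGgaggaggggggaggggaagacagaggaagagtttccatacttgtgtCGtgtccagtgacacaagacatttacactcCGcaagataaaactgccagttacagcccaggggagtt

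Accessibility was near the top of the ranking at the intracellular and membrane components of the pathway and varied widely among the secreted ones. The median gene ranked at 93.9 among the 8 Smads, 92.1 among the 12 receptors and 60.8 among the 23 ligands, beside 78.7 for all protein-coding genes (medians of each gene's mean over the 6 libraries). Within the ligands, the TGF-betas had a median of 80.3, the BMPs of 48.5 and the GDFs of 44.4. Across the 6 libraries the Smad median ran from 93.1 to 94.9, the receptor median from 90.2 to 93.8 and the ligand median from 51.8 to 63.0. The ligand class was thus below both other classes in every library, while the order of Smads and receptors was turned in PCM1 1 (93.7 and 93.8).

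**Figure D1:**
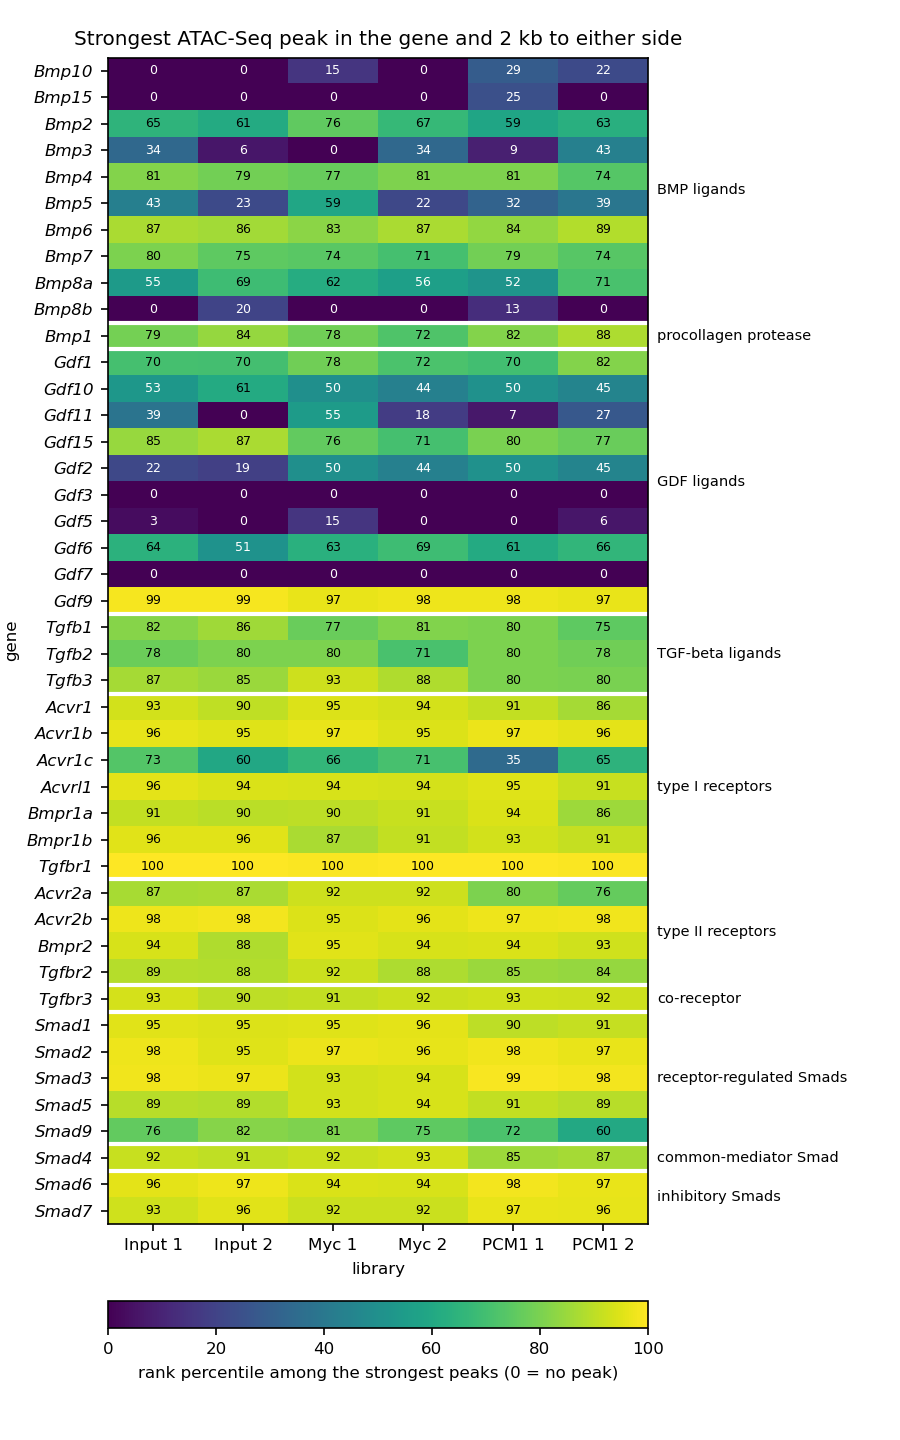
Rank percentile of the strongest ATAC-Seq peak in each of the 44 genes and 2 kb to either side (rows, grouped by role) in each of the 6 libraries (columns), printed in each cell and rounded to whole numbers, with 0 for no peak among the strongest 75336. Receptors and Smads are mostly near the top of the scale, with Acvr1c (34.7 in PCM1 1) and Smad9 (60.4 in PCM1 2) as exceptions. BMP and GDF ligands span it from 0 to 88.5 (Bmp6 in PCM1 2), apart from Gdf9, whose peak lies at the TSS of Uqcrq and covers the annotated 5′ end of Gdf9.

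Length goes with this contrast and was not adjusted for. The median gene was 90.8 kb long among the receptors, 62.9 kb among the Smads and 10.7 kb among the ligands, beside 17.4 kb for all protein-coding genes, and a longer window can hold more peaks. A measure that does not use length gave the same order. Within 1 kb of the gene's own transcription start sites (TSSs), the median rank was 93.9 for Smads, 90.6 for receptors and 22.1 for ligands, beside 66.0 for all protein-coding genes. Only TSSs of protein-coding transcripts were used. A TSS peak was present in all 6 libraries in 8 of 8 Smads, 11 of 12 receptors and 9 of 23 ligands. It was present in no library in 7 of the 23 ligands, a share close to that of all protein-coding genes (7005 of 21911). Over the whole set, 29 of 44 genes had a TSS peak in all 6 libraries, beside 58.4% of all genes, and 36 of 44 had a peak anywhere in the window in all 6, beside 68.6%.

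Among the BMP ligands, Bmp6 had the strongest site. BMP6 is known in endothelial and iron biology as well as in the heart. Its promoter ranked at 87.1 and 86.2 (Input), 82.6 and 87.5 (Myc) and 83.8 and 88.5 (PCM1), with no gap between the groups. Bmp7, which overlaps in function with other BMPs of its subgroup, ranked at 80.3 and 75.2 (Input), 74.4 and 70.5 (Myc) and 78.6 and 73.9 (PCM1), so that both Input libraries lay above both Myc libraries by less than 1 point. The Input 2 value is that of a region over 1 kb from the TSS, and the other 5 are those of the promoter. At the promoter Input 2 ranked at 69.9, below both Myc libraries, so there the groups overlapped. Bmp2, a signal of the atrioventricular canal, had its strongest peak at its TSS, at 64.9 and 61.2 (Input), 75.6 and 67.2 (Myc) and 58.8 and 63.0 (PCM1), which places both Myc libraries above the other 4.

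Bmp4, a ligand of the outflow tract, reached 81.5 and 78.6 (Input), 76.6 and 80.6 (Myc) and 80.7 and 73.6 (PCM1), but this peak was in an intron 3143 bp from the nearest TSS, and no library had a peak within 1 kb of a Bmp4 TSS. Bmp5 likewise had intronic peaks only, with a mean of 36.3. Bmp10, a ligand made by cardiomyocytes of the trabeculae and later of the atrium, ranked at 0 and 0 (Input), 15.3 and 0 (Myc) and 29.2 and 22.3 (PCM1). This was a single weak region in the untranslated part of the last exon, 8000 bp from the TSS, and its fold enrichment over background was 6.08 in Myc 1 and 5.65 and 5.12 in the PCM1 libraries. No library had a peak within 1 kb of the Bmp10 TSS. Bmp8a had a mean of 60.8 and Bmp3 of 21.0, whereas Bmp8b, at 5.62, had a peak among the strongest in only 2 libraries. Bmp15, an oocyte ligand, had a mean of 4.09 through a peak in PCM1 1 only, at 24.6.

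Among the GDF ligands, the highest value came from a peak that could belong to a neighbour. Gdf9, an oocyte ligand, ranked at 98.6 and 98.6 (Input), 96.7 and 97.5 (Myc) and 97.6 and 96.6 (PCM1). The peak was 198 bp from the TSS of Uqcrq, which encodes a subunit of mitochondrial complex III. It also covered the annotated 5′ end of the Gdf9 gene, at 53431023, and lay 2274 bp before the nearest TSS of a protein-coding Gdf9 transcript. No library had a peak within 1 kb of that TSS. Gdf15, a cytokine of cellular stress, ranked at 84.7 and 87.4 (Input), 76.0 and 70.6 (Myc) and 79.8 and 77.3 (PCM1). Its strongest site was in a coding exon 2337 bp from the TSS, and both Input libraries were above the other 4 while both Myc libraries were below. Gdf1, a ligand of left-right patterning, ranked at 70.5 and 70.1 (Input), 78.2 and 71.7 (Myc) and 69.6 and 81.6 (PCM1), through a region 2450 bp from its TSS and outside the gene in every library except Input 2, where a region at 1103 bp in a coding exon ranked higher.

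Gdf2, a circulating ligand made in the liver, ranked at 21.7 and 18.8 (Input), 49.7 and 43.7 (Myc) and 50.4 and 45.0 (PCM1). In all 6 libraries the site was chr14:33939149-33939508, 1696 bp before its TSS, a region that also lies within 2 kb of the end of Gdf10 and was counted for both genes. Its own TSS had a peak in Myc 1 only, at 4.69. Gdf10 was open at its promoter, with a mean of 42.9 there, at 52.8 and 61.2 (Input), 34.7 and 30.1 (Myc) and 39.9 and 38.6 (PCM1). In Myc and PCM1 the shared region ranked above this promoter and gave the value of Gdf10. Gdf6 had a mean of 62.4 with its strongest site, on average, in a coding exon. Gdf11, a close relative of myostatin, had a mean of 24.2 and Gdf5 of 4.10. Gdf3 and Gdf7 had no peak among the strongest 75336 of any library. In the full lists Gdf3 had 1 peak, in Input 1, and Gdf7 had 2 in each of Input 1 and Myc 2 and 1 in each of Myc 1 and PCM1 2.

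All 3 TGF-beta ligands had a TSS peak in all 6 libraries. Tgfb3 ranked at 86.6 and 84.8 (Input), 92.5 and 88.0 (Myc) and 80.3 and 80.0 (PCM1), so that both Myc libraries lay above, and both PCM1 libraries below, the other groups. Tgfb2, the ligand most tied to valve formation, ranked at 77.7 and 80.4 (Input), 80.4 and 71.4 (Myc) and 80.1 and 78.2 (PCM1), with overlapping groups. Tgfb1, the isoform best known in fibrosis, ranked at 82.0 and 85.8 (Input), 77.3 and 81.2 (Myc) and 80.1 and 75.2 (PCM1), through a site in an intron 2380 bp from the TSS, while its promoter had a mean of 38.1.

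**Figure D2:**
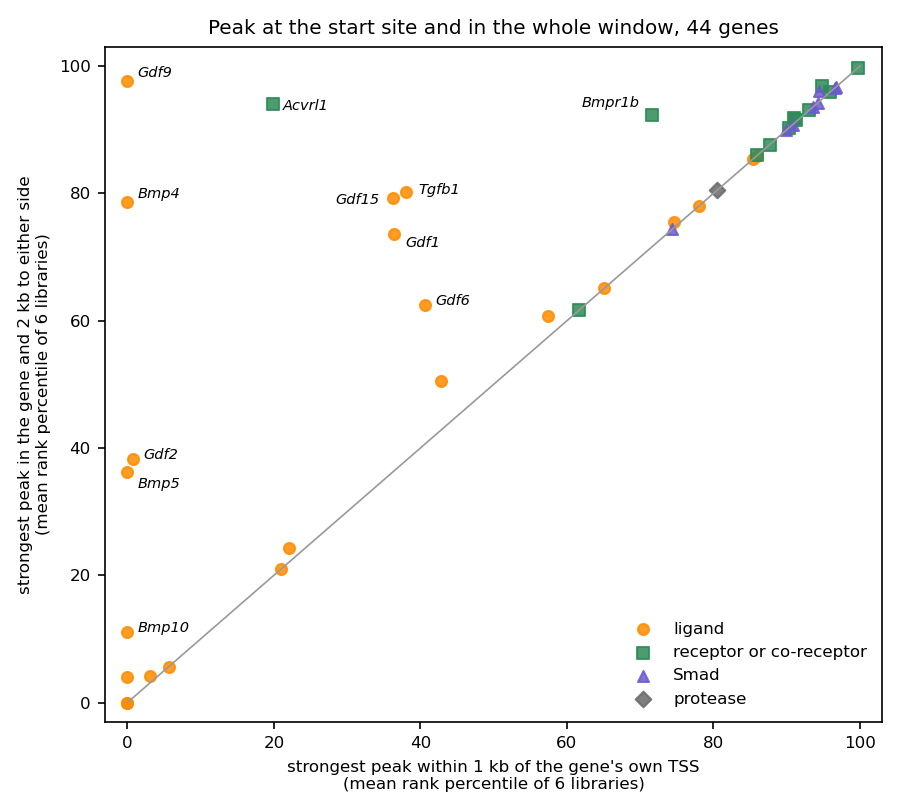
Mean rank percentile over 6 libraries of the strongest peak within 1 kb of the gene's own TSS (x axis) and in the whole gene with 2 kb to either side (y axis) for the 44 genes, with the line of equality. Genes on the line have their strongest peak at the TSS. Gdf9 (97.6 against 0), Bmp4 (78.6 against 0) and Acvrl1 (94.0 against 19.8) lie far above it. TSSs are those of protein-coding transcripts, and the Gdf9 peak covers the annotated 5′ end of that gene.

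Receptor genes had a peak in all 6 libraries without exception. Tgfbr1, the type I receptor for TGF-beta, ranked at 99.7 and 99.8 (Input), 99.6 and 99.8 (Myc) and 99.6 and 99.5 (PCM1), with a fold enrichment over background between 19.5 and 22.3. The whole range was thus under 1 point, and the promoter shown above was the site. Acvr1b, a type I receptor for activin, ranked at 96.2 and 95.2 (Input), 96.7 and 94.9 (Myc) and 97.0 and 95.8 (PCM1) at its promoter. Bmpr1a, the BMP receptor required in the developing myocardium, ranked at 90.7 and 89.8 (Input), 90.2 and 91.4 (Myc) and 94.3 and 85.5 (PCM1), and the groups overlapped. Acvr1, a further BMP type I receptor, ranked at 93.2 and 90.2 (Input), 94.6 and 93.7 (Myc) and 90.8 and 86.3 (PCM1), with both Myc libraries above the other 4. In PCM1 2 the value is that of an intronic region 1409 bp from a TSS, and in the other 5 libraries that of the promoter, which ranked at 84.7 in PCM1 2. The promoter region lies 164 bp from a TSS of Acvr1 and 66 bp from a TSS of Upp2, so the peak was counted for Acvr1 but could belong to either.

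Acvrl1, a receptor of endothelial cells that binds the circulating ligands, stood apart from the other receptors. Its window ranked at 96.0 and 94.5 (Input), 93.8 and 93.6 (Myc) and 94.9 and 91.4 (PCM1), through chr15:101145393-101145944 beyond the end of the gene, 11492 bp from the nearest TSS. At its own TSSs the rank was 17.5 and 41.3 (Input), 38.6 and 0 (Myc) and 0 and 21.6 (PCM1), which was the lowest mean of any receptor. Bmpr1b, a BMP receptor best known in cartilage, also had its strongest site away from the promoter, in an intron 43448 bp from the nearest TSS. That site ranked at 95.6 and 95.6 (Input), 87.4 and 90.8 (Myc) and 93.3 and 91.1 (PCM1), with a fold enrichment of 24.6 and 24.0 (Input), 20.1 and 21.7 (Myc) and 21.0 and 18.9 (PCM1). Acvr1c had the weakest receptor promoter after that of Acvrl1, with a mean of 61.6 and a value of 34.7 in PCM1 1.

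Type II receptors ranked at 86.0 to 96.9 on average. Acvr2b, a receptor for activins and GDFs, ranked at 97.5 and 98.4 (Input), 94.8 and 95.8 (Myc) and 97.5 and 97.7 (PCM1). In Input and PCM1 this was the intronic site chr9:119425168-119425923, which ranked at 97.5 and 98.4 (Input), 92.9 and 94.1 (Myc) and 97.5 and 97.7 (PCM1). In the Myc libraries the promoter of Acvr2b, at 94.8 and 95.8, ranked above it. Bmpr2, the main BMP type II receptor, ranked at 93.8 and 87.9 (Input), 95.4 and 94.1 (Myc) and 94.2 and 92.9 (PCM1) at its promoter. Tgfbr2 ranked at 88.7 and 88.4 (Input), 91.8 and 87.8 (Myc) and 85.1 and 84.2 (PCM1), with both PCM1 libraries below the other 4. Acvr2a ranked at 86.8 and 87.5 (Input), 92.5 and 92.3 (Myc) and 80.3 and 76.4 (PCM1). Its 3 groups did not overlap, with Myc highest and PCM1 lowest, and the gap from the lower Myc to the higher PCM1 library was over 10 points. Tgfbr3, also called betaglycan, ranked at 93.4 and 90.2 (Input), 90.8 and 92.0 (Myc) and 92.9 and 92.3 (PCM1), and its 183 kb held 32 accessible regions, the most of any gene in the set.

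All 8 Smad genes had a TSS peak in all 6 libraries. Smad2 ranked at 97.6 and 95.2 (Input), 97.2 and 96.3 (Myc) and 97.7 and 96.5 (PCM1), with overlapping groups. Smad3, its partner in the TGF-beta branch, ranked at 98.0 and 97.1 (Input), 93.2 and 94.0 (Myc) and 99.2 and 98.1 (PCM1), where both Myc libraries were the lowest and both PCM1 libraries the highest. Smad1, of the BMP branch, ranked at 95.4 and 94.6 (Input), 95.0 and 95.7 (Myc) and 90.1 and 91.0 (PCM1), with both PCM1 libraries the lowest, and Smad5 at 89.1 and 88.6 (Input), 93.1 and 93.9 (Myc) and 90.7 and 89.4 (PCM1), with both Myc libraries the highest. Smad9 had the lowest mean of the class, 74.4.

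Smad4, the partner shared by both branches, ranked at 91.7 and 90.6 (Input), 91.9 and 93.2 (Myc) and 85.4 and 86.7 (PCM1). Both PCM1 libraries lay below and both Myc libraries above the Input libraries, in the case of Myc by less than 1 point. The inhibitory Smad6 ranked at 96.0 and 97.3 (Input), 94.5 and 94.1 (Myc) and 98.1 and 96.8 (PCM1), and Smad7 at 92.8 and 95.6 (Input), 91.8 and 92.0 (Myc) and 96.7 and 96.3 (PCM1). In both inhibitory genes the Myc libraries were the lowest, and in Smad7 the PCM1 libraries were the highest. Bmp1, the protease, ranked at 79.2 and 84.0 (Input), 78.2 and 72.4 (Myc) and 81.6 and 87.6 (PCM1), also with both Myc libraries the lowest.

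Beyond the strongest site, the windows of the 44 genes held 286 merged regions of the 118244 found across the 6 libraries. Of these, 213 (74.5%) were intronic, 45 lay at a promoter of the gene, 10 in a UTR, 8 in a coding exon, 8 in the flanks and 2 at the promoter of another gene. Promoter regions were called in all 6 libraries in 68.9% of cases and intronic regions in 29.6%. In all, 106 regions (37.1%) were called in all 6 libraries, beside 37% of all regions, and 76 (26.6%) were called in 1 library, beside 25.4%. Regions over 1 kb from every TSS made up 83.6% of the regions of the set, beside 85.7% overall.

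Smad3 and Smad6, which lie near each other on chromosome 9, held many regions, but other genes of the set did so too. Tgfbr3 held 32, Acvr1 16 and Bmp7 15. Per 10 kb, Smad7 (2.47) and Acvrl1 (2.88) held more regions than Smad3 (2.17) and Smad6 (2.06). Smad3 held 25 regions and Smad6 held 15, of which 6 and 3 were distal and called in all 6 libraries. The Smad6 site chr9:63968482-63969192, 53304 bp from the nearest TSS, ranked at 96.0 and 97.3 (Input), 91.4 and 92.3 (Myc) and 98.1 and 96.8 (PCM1), and in Input and PCM1 it was above the promoter of the gene. The promoter of Smad6 ranked at 95.1 and 95.4 (Input), 94.5 and 94.1 (Myc) and 94.6 and 93.0 (PCM1). The Acvr1 site chr2:58532232-58532823, 5955 bp from a TSS, ranked at 86.6 and 85.0 (Input), 89.8 and 87.6 (Myc) and 84.1 and 84.1 (PCM1).

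**Figure D3:**
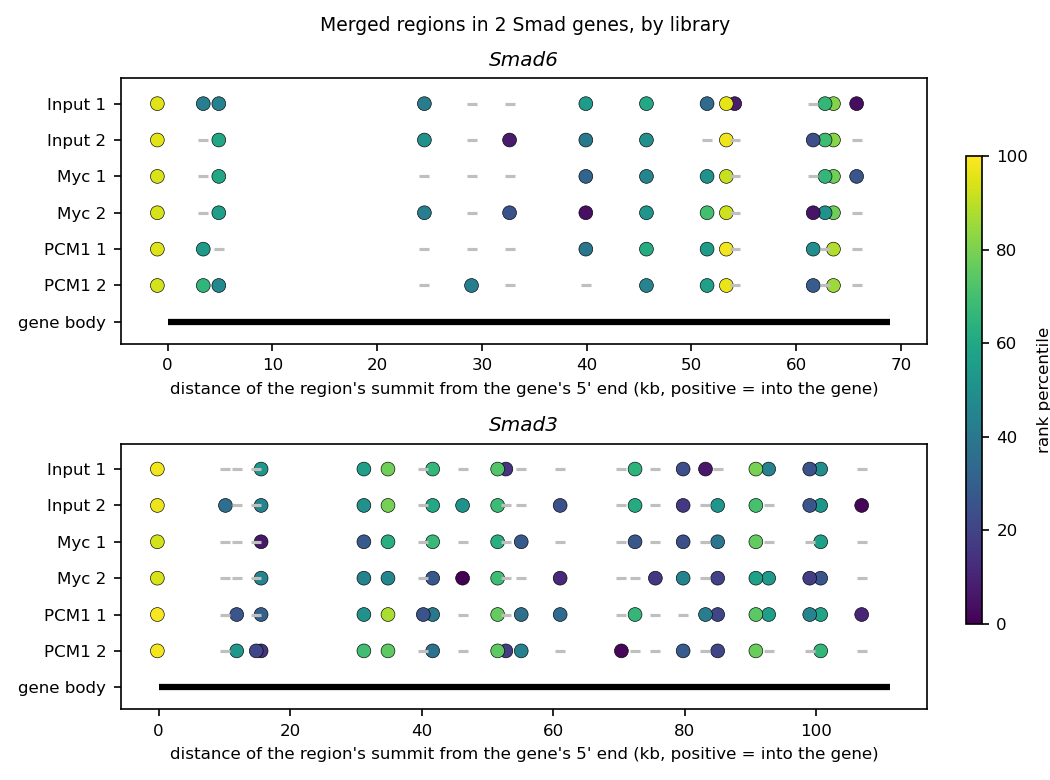
Merged regions in the windows of Smad6 (upper panel, 15 regions) and Smad3 (lower panel, 25 regions) by distance of the summit from the 5′ end of the gene in kb, with 1 row per library, circles coloured by rank percentile and grey dashes where the region was not called. Promoter regions and the Smad6 site near 53 kb are called in all 6 libraries, while many intronic regions are called in few.

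The motif letters searched occurred in distal regions of the set at shares within 2 percentage points of those in all distal regions, with the rare MEF2 and palindromic Smad letters the furthest apart as a ratio. In the 200 bp around distal summits, on both strands, the TEAD letters GGAATG occurred in 17.2% of 239 regions of the set and 16.0% of all distal regions, the GATA letters AGATAA in 11.3% and 12.8%, the NKX2-5 letters TNAAGTG in 9.62% and 11.4%, and the AP-1 letters TGANTCA in 7.53% and 9.27%. The MEF2 letters CTAAAAATA occurred in 1 region of the set (0.418%), beside 1.80% of all. The GC-rich Smad element GGCGCC was found in 3.35% and 2.94%, and the SP/KLF letters GGGCGG in 7.11% and 6.83%. The palindromic Smad element GTCTAGAC occurred in 2 distal regions of the set, in introns of Acvr1 and Bmpr1b (0.837%), beside 0.263% of all distal regions. At the 47 promoter regions GGGCGG was present in 59.6% and GGCGCC in 23.4%, beside 54.5% and 17.2% of all promoter regions. TEAD letters were in 14.9% of them, beside 8.10%, but in 2.13% and 4.73% when 100 bp were searched. NKX2-5 letters were in 0 of the 47, beside 4.88%.

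CpG content went with the promoter peaks, within the set and among all genes. RefSeq promoters of GRCm38.p6, from 250 bp before to 50 bp after the start, were matched for 30 of the 44 genes. The median ratio of observed to expected CpGs was 0.859 in the 20 matched genes with a TSS peak in all 6 libraries, 0.729 in the 5 with a peak in some, and 0.284 in the 5 with none, beside 0.794, 0.457 and 0.175 for all matched genes of the same kinds. Exceptions ran both ways. Gdf7 had a ratio of 0.766 and no TSS peak, and Bmpr1b had a ratio of 0.291 and a TSS peak in all 6 libraries.

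**Figure D4:**
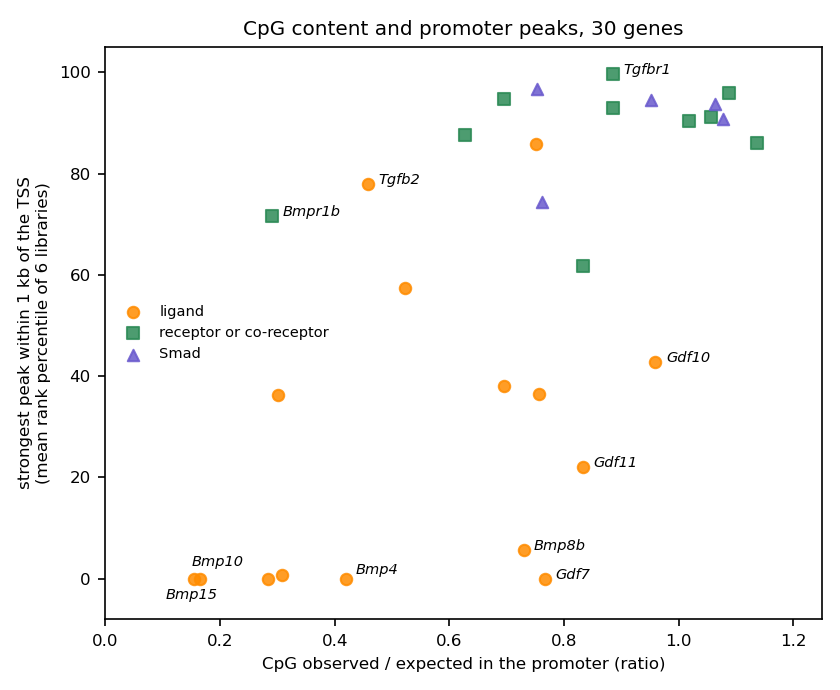
Ratio of observed to expected CpGs in the RefSeq promoter (x axis) and mean rank percentile over 6 libraries of the strongest peak within 1 kb of a TSS (y axis) for the 30 genes with a matched promoter, by class. The ligands with no TSS peak lie at low ratios apart from Gdf7, and the receptors and Smads lie mostly at ratios over 0.6 apart from Bmpr1b.

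The nuclear groups were then compared for the strongest site of each gene. With 2 libraries a group, an exact permutation test cannot go below a two-sided p of 0.333, or 0.0667 for 2 libraries against 4, so no test between groups was run and non-overlapping genes were counted beside all genes. Replicates of a group differed by a median of 2.48 points in Input, 3.65 in Myc and 4.06 in PCM1 over the 44 genes. Group means differed by a median of 2.96 points between Myc and Input, 2.68 between PCM1 and Input and 3.37 between Myc and PCM1. Means of 2 libraries vary less than single libraries, so these values and the replicate differences are not like measures. The median rank over all genes was higher in Myc (81.5 to 81.7) than in Input (78.6 to 79.4) and PCM1 (76.5 to 76.7), so that a small Myc excess is the general direction of these lists.

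Both Input libraries lay above both Myc libraries in 12 of the 44 genes, beside 16.5% of all genes, and above both PCM1 libraries in 12, beside 25.3%. Myc lay above Input in 9 genes, beside 29.7%, and above PCM1 in 10, beside 33.7%. PCM1 lay above Input in 5 genes, beside 16.2%, and above Myc in 9, beside 16.7%. As shares of the set these counts are between 11.4 and 27.3%. With all peaks, Myc lay above Input in 3 genes and above PCM1 in 22. Of the 12 genes higher in Input than in Myc, 3 were Smads (Smad3, Smad6 and Smad7) and 3 were receptors (Acvr2b, Acvrl1 and Bmpr1b). Among the 10 higher in Myc than in PCM1 were Smad1, Smad4, Smad5 and Smad9, with the receptors Acvr1, Acvr1c, Acvr2a and Tgfbr2 and the ligands Bmp2 and Tgfb3.

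Few of these gaps were wide. Over 10 points separated the nearest libraries in 1 gene between Myc and PCM1 (Acvr2a, Myc higher, beside 6.97% of all genes), 1 between Myc and Input (Gdf2, Myc higher, beside 2.73%), and 2 between PCM1 and Input (Bmp10 and Gdf2, PCM1 higher, beside 1.2%). By the strongest site, no gene of the set had such a gap for Input above Myc, beside 1.57%, Input above PCM1, beside 3.55%, or PCM1 above Myc, beside 1.95%. At the Gdf10 promoter, which was the strongest site in Input only, both Input libraries lay over 10 points above the Myc and PCM1 libraries. The Bmp10 gap compares weak peaks with none, and the Gdf2 gap rests on the region shared with the window of Gdf10. Neither gap of PCM1 over Input was present with all peaks, where Input 1 ranked at 29.4 for Bmp10 (35.8 and 28.2 in PCM1) and at 55.1 for Gdf2 (55.1 and 49.2 in PCM1). With 10 kb windows the Bmp10 difference between PCM1 and Input was -0.681 points.

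Each group was also set against the 4 libraries of the other groups, a comparison added after the data were seen. Both Myc libraries were below the other 4 in 7 genes (Acvr2b, Bmp1, Bmpr1b, Gdf15, Smad3, Smad6 and Smad7), beside 10.1% of all genes, and above them in 6 (Acvr1, Acvr2a, Bmp2, Smad4, Smad5 and Tgfb3), beside 23%. These counts use the strongest site. Of the 7 genes with Myc lowest, Bmp1, Smad3 and Smad7 had that site at the TSS. At the TSSs of Bmpr1b, Gdf15 and Smad6 the Myc values overlapped those of PCM1. At the Acvr2b promoter PCM1 was lowest, with 97.2 and 97.3 (Input), 94.8 and 95.8 (Myc) and 92.1 and 91.3 (PCM1). PCM1 was above the other 4 libraries in 3 genes (Bmp10, Smad3 and Smad7), beside 9.19%, and below them in 6 (Acvr2a, Smad1, Smad4, Smad9, Tgfb3 and Tgfbr2), beside 18.9%. Input was above in 5 genes (Bmpr1b, Gdf10, Gdf15, Gdf9 and Tgfb1), beside 6.13%, and below in 2 (Gdf2 and Smad5), beside 6.42%. With all peaks, Myc was below the other 4 libraries in 4 genes and above in 3, PCM1 above in 1 and Input below in 0. With ranks by fold, Myc was above the other 4 in 0 genes and below in 9. With 44 genes these counts are small, and neither their excess nor their deficit against all genes was tested.

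**Figure D5:**
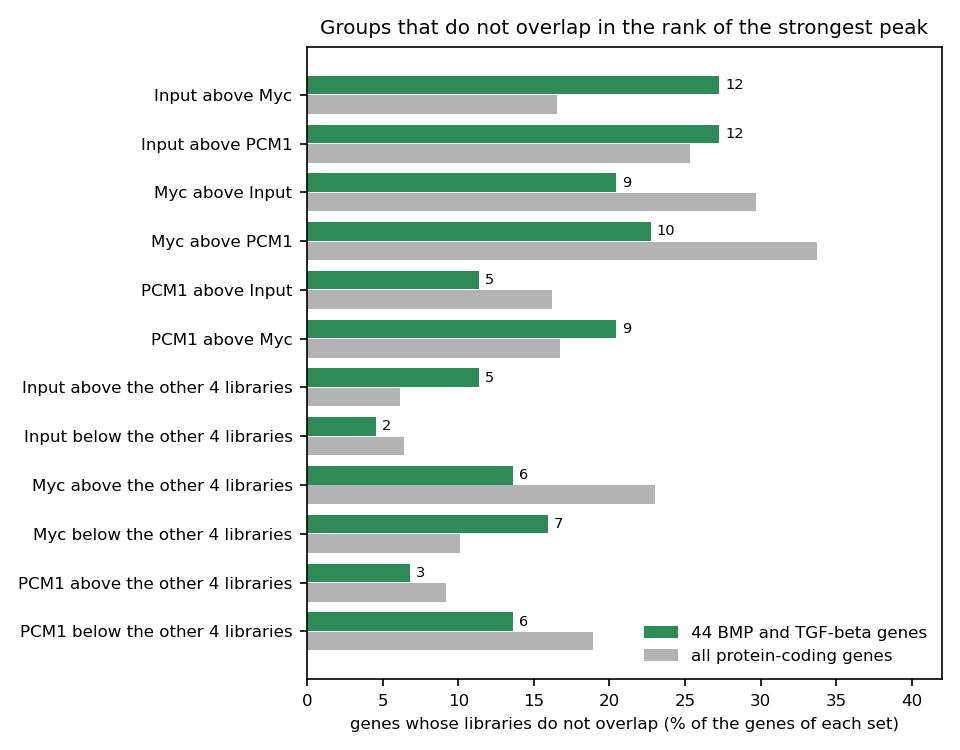
Share of the 44 genes (green, with the number of genes) and of all 21911 protein-coding genes (grey) whose libraries do not overlap in the rank percentile of the strongest peak, for each pair of groups and for each group against the 4 libraries of the other groups. The set is above the grey bar for Input above Myc (12 genes) and Myc below the other 4 libraries (7 genes), and below it for Myc above Input (9 genes) and Myc above PCM1 (10 genes).

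Distal regions were then compared, and those of the set were close to all distal regions in how often Myc was lowest. In 18 of the 74 distal regions of the set called in all 6 libraries (24.3%) both Myc libraries ranked below the other 4, beside 22.3% of all such regions, and in 4 they ranked above, beside 11.8%. The 18 include the Acvr2b, Bmpr1b and Smad6 sites shown above, a further region of Smad6, and 2 regions each of Acvrl1, Smad3, Smad7 and Tgfbr3. The Smad4 intron at chr18:73666362-73667070 is an example, with 72.3 and 76.9 (Input), 44.9 and 63.1 (Myc) and 81.5 and 76.6 (PCM1), opposite in direction to the promoter of the same gene. PCM1 was above the other 4 libraries in 9 of the 74, beside 19.1%, and below in 9, beside 10.8%, and Input was above in 9, beside 8.51%, and below in 3, beside 6.66%.

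Some lists of cell type markers differed between these groups, and others overlapped. The 10 CM markers, all with a peak in all 6 libraries, had median ranks of 94.9 and 95.8 (Input), 84.8 and 88.5 (Myc) and 96.3 and 96.6 (PCM1). Without overlap, 9 of the 10 were lower in Myc than in Input, beside 16.5% of all genes, and 9 lower than in PCM1, beside 16.7%. Myh6 and Myh7 had equal ranks in Input 1 (98.2) and in PCM1 (99.2 and 99.1), so they may not count as separate markers. The 8 fibroblast markers had medians of 60.0 and 54.9 (Input), 57.4 and 62.1 (Myc) and 47.3 and 45.6 (PCM1), and 6 of 8 were higher in Myc than in PCM1, beside 33.7% of all genes. The summed ranks of the 10 CM markers were 923 and 922 for the Input libraries, 810 and 863 for Myc and 924 and 921 for PCM1, and none of them was at 0 in all 6 libraries. Medians ran from 78.6 to 84.3 for 8 endothelial and endocardial markers, 65.0 to 76.8 for 8 of smooth muscle and pericytes, 46.5 to 60.2 for 6 epicardial, 16.3 to 52.3 for 6 immune and 0 to 11.3 for 6 erythroid markers. Summed ranks of smooth muscle and pericyte markers overlapped, at 503 and 491 (Input), 458 and 524 (Myc) and 489 and 500 (PCM1). Endothelial and endocardial sums were 590 and 575 (Input), 601 and 605 (Myc) and 578 and 625 (PCM1), with PCM1 overlapping both others. Epicardial sums fell from Input (321 and 313) to Myc (278 and 283) and PCM1 (260 and 276). Immune sums did so too, at 274 and 301, 268 and 260, and 238 and 226. The macrophage marker Adgre1 and the erythroid genes Hba-a1, Hbb-bs and Alas2 were at 0 in all 6 libraries. Other members of the same lists ranked high, with means of 97.3 for Cd68 and 96.1 for Cx3cr1 (immune) and 85.8 for Klf1 (erythroid). By the strongest site, the lower ranks of Acvr2b, Bmp1, Bmpr1b, Gdf15, Smad3, Smad6 and Smad7 in Myc went in the direction of the CM markers. The higher ranks of Acvr1, Acvr2a, Bmp2, Smad4, Smad5 and Tgfb3 in Myc went the opposite way. The part of cell makeup in either was not tested.

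Regions called in both libraries of a group and in neither of another were scarce. Of the 286 regions, 6 were called in Input and not Myc, beside 3.15% of all regions, 8 in Input and not PCM1, beside 3.58%, 6 in Myc and not Input, beside 3.33%, 11 in Myc and not PCM1, beside 5.5%, 7 in PCM1 and not Input, beside 2.46%, and 8 in PCM1 and not Myc, beside 3.55%. As shares of the set these are between 2.1 and 3.85%, which is close to or under the share of all regions. As examples, 3 are given, again as 200 bp of the plus strand of mm10 with motif letters in capitals, in each case CATTCC or GGAATG for TEAD. This match is not shared by all such regions. Those of Bmp6, Tgfb2 and Smad3 named below held none of the motifs searched. TEAD letters occurred in 17.2% of the distal regions of the set.
Smad6 chr9:63959206-63959405: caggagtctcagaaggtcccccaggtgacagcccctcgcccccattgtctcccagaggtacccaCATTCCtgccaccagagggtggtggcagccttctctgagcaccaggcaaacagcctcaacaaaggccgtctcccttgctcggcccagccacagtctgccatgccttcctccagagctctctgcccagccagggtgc
Bmp7 chr2:172906210-172906409: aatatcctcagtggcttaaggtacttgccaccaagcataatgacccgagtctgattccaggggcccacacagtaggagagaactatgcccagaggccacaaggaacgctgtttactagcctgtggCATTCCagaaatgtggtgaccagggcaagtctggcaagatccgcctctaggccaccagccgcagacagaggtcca
Acvr2a chr2:48886117-48886316: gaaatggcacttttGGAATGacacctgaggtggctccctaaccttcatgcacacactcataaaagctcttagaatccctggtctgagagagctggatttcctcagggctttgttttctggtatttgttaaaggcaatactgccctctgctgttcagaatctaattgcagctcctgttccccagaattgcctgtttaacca

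The Smad6 region chr9:63959142-63959482, in an intron 62726 bp from the nearest TSS, ranked at 66.1 and 68.9 (Input), 66.2 and 51.0 (Myc) and 0 and 0 (PCM1). It was also missing from the full PCM1 lists, although those libraries called the stronger Smad6 sites to either side. The Bmp7 region chr2:172906183-172906470, in an intron 34011 bp from the TSS, was called in PCM1 only, at 61.0 and 42.3, and with all peaks Input 1 had a peak there at 26.5. The Acvr2a region chr2:48885932-48886401, in an intron 72108 bp from the TSS, ranked at 40.3 and 0 (Input), 55.9 and 64.2 (Myc) and 0 and 0 (PCM1). Input 2 and both PCM1 libraries had no peak there, and in the full lists PCM1 1 had a weak one, at 7.32.

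Other regions of this kind were weaker. Called in Input and not in Myc were intronic regions of Bmp6 (chr13:38380819-38381304, at 44.3 and 41.6 in Input), Tgfb1 (chr7:25703807-25704131, at 34.9 and 57.2) and Tgfbr3 (chr5:107224083-107224471, at 15.3 and 10.6). With all peaks, both Myc libraries had a peak in the Bmp6 region, only Myc 1 in the Tgfb1 region and only Myc 2 in the Tgfbr3 region. Called in Input and not in PCM1 were a further intronic region of Smad6 (chr9:63997404-63997862, at 41.7 and 50.3 in Input) and another of Tgfbr3 (chr5:107200242-107200623, at 26.1 and 41.4). Neither PCM1 library had a peak there in its full list.

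Called in Myc and not in Input were an intronic region of Smad7 (chr18:75391645-75391982, at 17.8 and 40.0 in Myc), a UTR region of Tgfbr2 (chr9:116087952-116088222, at 33.2 and 15.7) and an intronic region of Bmp7 (chr2:172938746-172939049, at 14.4 and 7.20). With all peaks, Input 1 had a peak in the Smad7 region, and no Input library had one in the other 2. An intronic region of Tgfb2 (chr1:186692413-186692722) ranked at 37.3 and 26.8 in Myc and was not called in PCM1. In PCM1 and not in Input were intronic regions of Smad3 (chr9:63702573-63703030, at 36.2 and 43.4 in PCM1) and Gdf15 (chr8:70630711-70631019, at 54.3 and 34.2). With all peaks Input 1 had a peak at 37.5 in this Smad3 region, and no Input library had one in the Gdf15 region. A second intronic region of Smad3 (chr9:63745963-63746484, at 26.2 and 53.1) and a region of Smad6 near its promoter (chr9:64018474-64018785, at 53.8 and 65.4) were in PCM1 and not in Myc. In the full lists Myc 1 had a peak at the second Smad3 region, and no Myc library had one at the Smad6 region. That region had a fold enrichment of only 2.90 and 3.49 in PCM1.

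Among other genes of the pathway, those for intracellular regulators ranked high, as the Smads did, while the secreted components differed among themselves. A TSS peak was present in all 6 libraries in 7 of 7 intracellular regulators such as Ski, Skil and the Smurf ligases (median rank 94.2) and in 9 of 9 target genes such as Id1 and Id3 (90.1). It was present in 4 of 5 other receptors and co-receptors (86.1), 4 of 4 latent TGF-beta binding proteins (82.9), 9 of 16 extracellular antagonists (58.2) and 4 of 10 other ligands of the superfamily (58.3). For all protein-coding genes the share was 58.4% and the median rank 78.7, so the antagonists were near that share. Gaps of over 10 points between groups occurred in 3 antagonists and 1 target gene. For all genes such gaps came to 3.55% for Input above PCM1 (here Nog and Chrdl1), 6.97% for Myc above PCM1 (Nog), 2.73% for Myc above Input (Nbl1), 1.57% for Input above Myc and 1.95% for PCM1 above Myc (both Tgfbi). Nog, which encodes the BMP antagonist noggin, ranked at 63.3 and 62.6 (Input), 66.1 and 70.1 (Myc) and 52.6 and 47.6 (PCM1), with PCM1 the lowest. Chrdl1, a chordin-like antagonist, ranked at 36.2 and 51.9 (Input), 0 and 33.0 (Myc) and 24.6 and 0 (PCM1), and Nbl1, a further secreted antagonist, at 59.1 and 65.3 (Input), 80.2 and 76.5 (Myc) and 76.7 and 55.3 (PCM1). Tgfbi, a matrix protein induced by TGF-beta, ranked at 83.0 and 81.0 (Input), 45.0 and 67.4 (Myc) and 83.0 and 87.0 (PCM1), with Myc the lowest.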

How the data were processed

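Omni-ATAC-Seq peak lists of 6 libraries (Input, Myc and PCM1, 2 replicates each) were used. After trimming, the authors aligned the reads to mm10 (Bowtie2 2.3.3.1), marked duplicates with picard-tools 2.2.1, removed blacklisted regions with bedtools 2.7.1, shifted alignments for Tn5 and called peaks per library with MACS2 2.1.0.20160309 at a q-value of 0.05. In each deposited list the fold is the ratio of the summit's pileup to its local background, the -log10 values are those of its p-value and q-value, and the score is 10 times the deposited -log10 q-value without its decimals. No read counts were used. Depth was inferred from fold and p-value, which gave whole pileups (within 0.02) for 99.9991% of peaks or more in every library.

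Peaks were assigned in Python 3.11.15 (pandas 2.3.3, numpy 2.4.6, scipy 1.17.1, pysam 0.24.0, plots with matplotlib 3.10.9) to GENCODE M21 genes of GRCm38, the assembly called mm10. Regions are peaks of the 6 equal lists merged where they overlapped by at least 1 bp or touched. Sequences came from GRCm38.p6. Values in every library were given for the 3 genes of each role with the highest mean rank, for genes with gaps of over 10 points between groups, and for genes known in heart development. The genes and lists were chosen with earlier results of these data known. A further target gene of the pathway is not reported here. The steps were tested on simulated peaks in 1842 windows of chromosome 2, where 200 of 200 placed peaks and 100 of 100 raised windows were found, with 0 false calls. The raise was far larger than the simulated noise, and a gap of 10 points was required. The simulation thus checked the code and gives no error rate for the counts above. Alternatives were all peaks, a q-value of 0.01, windows of 10 kb or of 2 kb around a TSS, ranks by fold, other overlaps and distances, pairing by replicate number, and leaving out each library.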

Additional observations from a re-analysis of the deposited data

How the results depend on the processing

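The number of libraries, 2 a group, and the lack of read counts limit every comparison between groups, and a peak missing from a list is only a peak not detectable at that depth. The cause of the changes given here was not tested. The median rank of the 44 genes, as group means, became 87.9, 86.5 and 81.4 in Input, Myc and PCM1 with all peaks, 87.8, 88.3 and 85.3 with 10 kb windows, 80.9, 75.3 and 77.6 with 2 kb around each TSS, and 73.0, 71.4 and 73.7 with ranks by fold.

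Counts of non-overlapping genes and of regions called in a single group moved with the processing. With all peaks they became 7 for Input above Myc, 3 for Myc above Input, 22 for Myc above PCM1, 1 for PCM1 above Input and 4 for PCM1 above Myc. With ranks by fold they became 4 for Myc above Input, 5 for Myc above PCM1 and 15 for PCM1 above Myc. With a gap of at least 10 points they were 0 for Input above Myc, Input above PCM1 and PCM1 above Myc, 1 for Myc above Input and for Myc above PCM1, and 2 for PCM1 above Input. Leaving out 1 library at a time gave 16 to 17 for Input above Myc, 15 to 21 for Input above PCM1, 10 to 16 for Myc above Input, 13 to 17 for Myc above PCM1, 8 to 13 for PCM1 above Input and 11 to 20 for PCM1 above Myc, where a lone library makes overlap rarer. For 1 group against the other 4 libraries, all peaks gave 4 genes for Myc below, 3 for Myc above, 1 for PCM1 above and 0 for Input below, ranks by fold gave 0 for Myc above, and 10 kb windows gave 3 for Input above and 10 for PCM1 below. Counts under the other settings stayed within 1.5 times.

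Same-numbered libraries share only a number. The correlation of replicate differences over 17077 genes was 0.00288 between Input and Myc, -0.0246 between Input and PCM1 and 0.0325 between Myc and PCM1. With the replicate block, the count was 9 for PCM1 above Input and 16 for PCM1 above Myc, and the other directions stayed within 1.5 times.

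Regions called in a group and not in another became, with all peaks, 14 for Input and not PCM1, 10 for Myc and not Input, 26 for Myc and not PCM1, 1 for PCM1 and not Input and 3 for PCM1 and not Myc. Leaving out 1 library gave 17 to 20 for Input and not Myc, 18 to 23 for Input and not PCM1, 9 to 25 for Myc and not Input, 17 to 27 for Myc and not PCM1, 14 to 30 for PCM1 and not Input and 17 to 34 for PCM1 and not Myc. With 100 bp around distal summits, fewer bases being searched, 23 regions held the TEAD letters, 14 NKX2-5, 8 AP-1, 5 the GC-rich Smad element and 8 SP/KLF. With 10 kb windows the Bmp10 difference between PCM1 and Input turned to -0.681 points.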
